A study of Caenorhabditis elegans with 4 samples.

Results

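The regions described are the COH-3 peaks on chromosome V of Caenorhabditis elegans, taken as every peak on that chromosome in the list that the authors made for the whole series. They number 1550 of the 9642 nuclear peaks in that list, or 16.1%, on a chromosome that makes up 20.9% of the summed length of the 6 chromosomes, each measured to its last peak. The list of ChIP replicate 1 holds 528 of its 3224 peaks on V and the list of ChIP replicate 2 holds 662 of its 4192. All 4 libraries of the study came from hermaphrodites of the strain fem-2(b245), an allele on chromosome III, kept at 20 degrees Celsius, and there was no wild-type or untreated group. The stage label is a young adult that contains a germline, while the growth protocol speaks of gravid adults separated by flotation on sucrose. Chromatin from whole worms, so from germline and soma together, was fixed with EGS for 20 minutes and with EGS plus formaldehyde for 10 more, and was precipitated in the 2 ChIP replicates with SDQ3948, a polyclonal rabbit antibody raised against COH-3. Whether the antibody also binds COH-4 was not tested here, so the peaks may include sites of COH-4. The share of cells in whole adults that carry COH-3 is not known, so peaks describe the mixture. The 2 input DNA libraries entered no calculation here. Separate cultures for the replicates are not stated, so their differences may be technical.

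Cohesin is a ring-shaped complex that holds sister chromatids together, and its kleisin subunit bridges the ring. COH-3 and its close relative COH-4 are kleisins of worm meiotic cohesin and are found along chromosome axes in germ cells. fem-2 belongs to the sex determination pathway and promotes male fates, including sperm formation in hermaphrodites. The genes coh-3 and coh-4 both lie on chromosome V in the RefSeq gene table, which is of another assembly and gives no position here. Worm autosomes have a gene-dense centre with few crossovers between arms that are richer in repeats and recombine more. Chromosome V is known for large families of chemoreceptor genes on its arms. All positions below are on WormBase WS220. The genes and the sequence at these positions were not analysed here, because the gene table is of another assembly.

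COH-3 peaks on V were densest in the centre of the chromosome. With the left arm ending at 5.90 Mb and the right arm starting at 16.55 Mb, the whole-series list had 303 peaks in the left arm, 1053 in the centre and 194 in the right arm. This gave 51.4, 98.9 and 44.4 peaks per Mb. The centre held 67.9% of the peaks on 50.9% of the length, and its density was 2.04 times that of the combined arms. The share of bases under peaks followed the same order, with 2.37% in the left arm, 4.41% in the centre and 2.25% in the right arm.

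The replicates differed in how far the centre exceeded the arms. Replicate 1 had 15.9, 35.8 and 12.1 peaks per Mb in the left arm, the centre and the right arm, so that its centre was 2.50 times as dense as its arms. Replicate 2 had 23.9, 37.3 and 28.3 peaks per Mb, and its ratio was 1.45. The mean ratio was 1.97 ± 0.746 (SD, n = 2 replicates). The lists were close in the centre and far apart in the right arm. The arms also ranked differently: the left arm was the denser one in replicate 1 and the right arm in replicate 2. The difference between centre and arms was not tested over the 2 ChIP libraries, and places along a chromosome are not replicates.

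The excess in the centre of replicate 2 depended on the boundaries. When the middle 33.3% of the chromosome was set against the rest, the ratio was 2.26 in replicate 1, 0.969 in replicate 2 and 1.73 in the whole-series list. Replicate 2 was then near level, with 31.0 peaks per Mb in the middle and 32.0 in the rest. The stretch from 14 Mb to the right arm boundary, which belongs to the centre only under the first boundaries, had 45.5 peaks per Mb in replicate 2 and 20.8 in replicate 1. On the left, most of the window from 6 to 7 Mb also leaves the centre. That window had 65 peaks in replicate 2 and 48 in replicate 1. With the same middle part, the whole-series ratios of chromosomes I to IV were 1.60, 1.62, 1.64 and 1.51, and that of X was 1.01. On I to IV they were 2.19, 2.27, 1.98 and 1.78 in replicate 1 and 1.01, 0.756, 1.09 and 1.04 in replicate 2. On X they were 1.17 and 0.502. The ratio was thus lower in replicate 2 than in replicate 1 on every chromosome. Whether the values on V differ from these was not tested.

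Along the chromosome, the number of whole-series peaks per window of 1 Mb ranged from 32 to 148 with a median of 63. The highest count, 148, was in the window from 10 to 11 Mb, followed by 145 from 6 to 7 Mb. Replicate 1 also had its most peaks from 10 to 11 Mb, with 65 against 40 in replicate 2. Replicate 2 had its most from 6 to 7 Mb, with 65 against 48 in replicate 1. From 12 to 13 Mb the counts were 32 in replicate 1 and 11 in replicate 2, and from 18 to 19 Mb they were 9 and 35. Replicate 2 had more peaks in 16 of the 21 windows, and the 5 windows in which replicate 1 had more lay from 5 to 6 Mb and from 10 to 14 Mb. Replicate 2 thus led in every window outside these stretches.

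**Figure D1:**
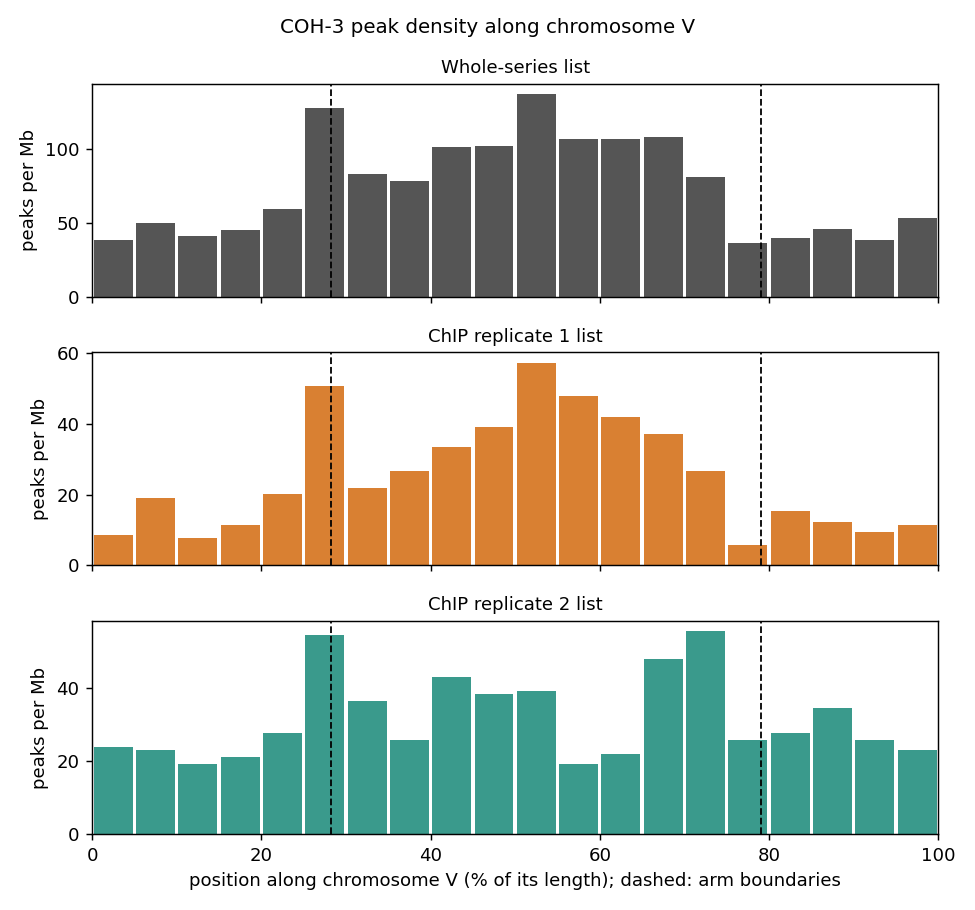
Number of COH-3 peaks per Mb (y axis) in 20 bins of 5% of chromosome V (x axis, percent of length) for the whole-series list and each ChIP replicate list, with arm boundaries dashed. Replicate 1 peaks in the middle of the chromosome, while replicate 2 keeps 28.3 peaks per Mb in the right arm.

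The peaks were narrow. In the whole-series list the median width on V was 291 bp, with quartiles of 193 and 470 bp and a range from 146 to 8280 bp. Median width was 268 bp in the left arm, 299 bp in the centre and 275.5 bp in the right arm, so that the parts differed by far less than the spread within each. The medians of the replicate lists were 533.5 bp in replicate 1 and 312 bp in replicate 2. On the other chromosomes the whole-series median ran from 268 bp on X to 308 bp on III. In total the peaks of V covered 707 kb, or 3.38% of the chromosome.

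A small number of wide peaks made up a large part of the covered length. Whole-series peaks of 2 kb or more numbered 39, which is 2.52% of the peaks and 18.8% of the covered bases. They lay 7 in the left arm, 21 in the centre and 11 in the right arm. Replicate 1 had 29 such peaks, of which 23 were in the centre and 4 in the right arm. Replicate 2 had 19, of which 7 were in the centre and 7 in the right arm. With a bar of 1.5 kb, V held 57 of the 324 whole-series peaks of that width, and 25 of the 57 had a peak of both replicates. Score and width rose together across peaks, with a Spearman rho of 0.67 in the whole-series list (n = 1550), 0.84 in replicate 1 (n = 528) and 0.85 in replicate 2 (n = 662). These are correlations across peaks of one list and peaks are not independent. The scores are the authors' own, of a kind that is not stated and on different scales in the whole-series and replicate lists, and serve here only to rank peaks within a list.

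The 5 widest peaks lay in all 3 parts of the chromosome. The widest, at chrV:7916789-7925068 in the centre, spanned 8280 bp. The second, at chrV:9338350-9345335, spanned 6986 bp and was covered by a single peak of replicate 1 and by 5 peaks of replicate 2. The next of these in width, at chrV:10605584-10612465 with 6882 bp, and chrV:3434544-3441242 with 6699 bp, each had a replicate 2 peak at a score of 3100 and no replicate 1 peak. The remaining wide peak, at chrV:17119876-17126650 in the right arm with 6775 bp, was found in both. Of these 5 peaks, 3 were thus found in both replicates.

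Neighbouring peaks lay close together, and closer in the centre than in the arms. The median distance from the end of a whole-series peak to the start of the next was 3.23 kb, with quartiles of 0.533 and 15.5 kb. It was 4934 bp with peaks within 200 bp merged and 9687 bp in the upper 50% of the list by score. Over all peaks it was 5.76 kb in the left arm, 2.54 kb in the centre and 6.21 kb in the right arm. Distances of at most 5 kb made up 48.2% in the left arm, 60.8% in the centre and 47.4% in the right arm, and 33.5% of all distances on V were at most 1 kb. In replicate 1 the medians were 12.7, 5.62 and 26.1 kb in the left arm, the centre and the right arm, and in replicate 2 they were 23.9, 7.29 and 14.3 kb. The centre had the shortest spacing in each of the 3 lists.

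**Figure D2:**
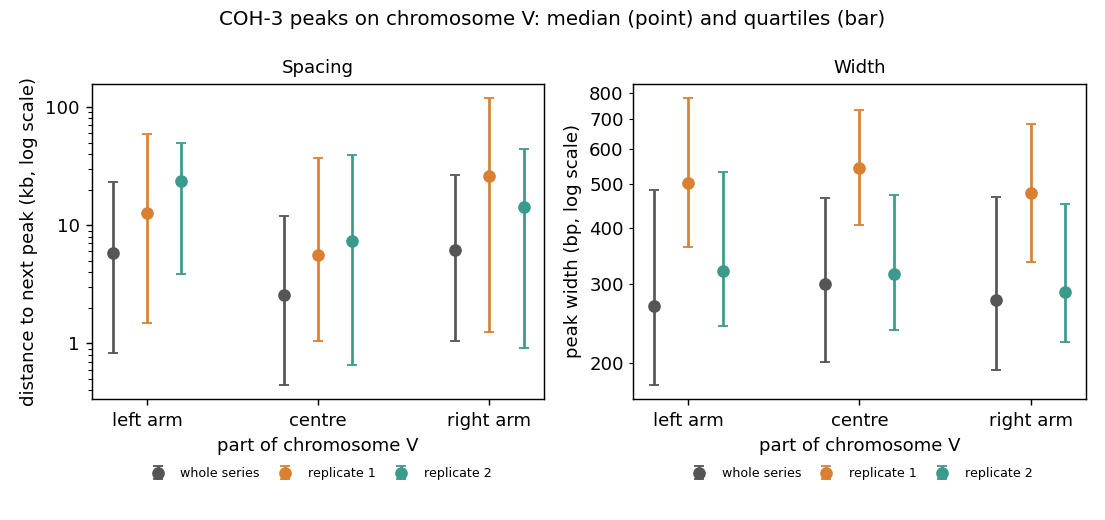
Distance to the next peak (left, kb, log scale) and peak width (right, bp, log scale) by part of chromosome V, as medians (points) with quartiles (bars) for the 3 lists. Spacing is shortest in the centre in each list, at 2.54 kb in the whole-series list, while the whole-series median widths of the parts lie between 268 and 299 bp.

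Stretches without peaks were mostly in the arms. Of the 29 distances above 100 kb, 22 lay in the arms. The longest, 184 kb at chrV:3796188-3980178, and the next, 184 kb at chrV:3204725-3388383, were both in the left arm. The third, 180 kb at chrV:16046106-16225667, was in the centre near the right arm boundary. The first of them contained 1 peak of each replicate list and the second 1 replicate 2 peak, while the third held none of either.

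The peaks were next compared between the lists, since the whole-series list does not show which replicate a peak comes from. Overlap of at least 1 bp was counted as support. Of the 1550 peaks, 144 overlapped a peak of both replicates (9.29%, exact 95% interval 7.89 to 10.8), 409 one of replicate 1 alone (26.4%, 24.2 to 28.7), 377 one of replicate 2 alone (24.3%, 22.2 to 26.5) and 620 one of neither (40%, 37.5 to 42.5). Over all 6 chromosomes, V included, these shares were 10.6%, 23.8%, 24.8% and 40.9%. V was nearest to this background in the classes replicate 2 alone and neither. Over chromosomes I to IV, 11.6% had both (10.9 to 12.4) and 20.8% replicate 1 alone (19.9 to 21.8). By chromosome these shares ran from 10.8% to 13.1% and from 16.9% to 23.9%. V thus had the lowest share with both and the highest with replicate 1 alone among the autosomes. It also had the fewest replicate peaks per Mb among them. Replicate 1 had 25.2 on V and 31.0 to 43.0 on I to IV, and replicate 2 had 31.6 and 44.4 to 57.3. Whether the shares go with this density was not tested. The difference between V and these chromosomes was not tested. With an overlap of 50% of both peaks required, the share of V peaks with both was 5.23%, and with peaks within 1000 bp counted it was 15.5%. The intervals cover counting error over peaks only, and read depth is unknown, so a missing peak does not show missing COH-3.

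Seen from the replicate lists, 147 of 528 replicate 1 peaks on V overlapped a replicate 2 peak (27.8%, 24.1 to 31.9), against 32.5% over the 6 chromosomes. Of the replicate 2 peaks on V, 158 of 662 overlapped one of replicate 1 (23.9%, 20.7 to 27.3), against 26.5%. The whole-series list took up 518 of the replicate 1 peaks on V (98.1%, 96.5 to 99.1; series 97.8%) and 544 of the replicate 2 peaks (82.2%, lower limit 79.0; series 85%). Of the 66 replicate 2 peaks that scored lowest on V, 32 were in the whole-series list, as were all 66 that scored highest. For replicate 1 it held 49 of the 52 that scored lowest and all 52 that scored highest. More than 1 whole-series peak lay under 8.90% of the replicate 1 peaks and 3.32% of the replicate 2 peaks, up to 6 under a single peak, so a wide replicate peak can support several whole-series peaks at once.

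The share of supported peaks was highest in the centre for replicate 1 and in the right arm for replicate 2. In the centre 38.8% of whole-series peaks had a replicate 1 peak (35.9 to 41.9), compared with 30.7% in the left arm (25.5 to 36.2) and 26.3% in the right arm (20.2 to 33.1). For replicate 2 the shares were 31.1% in the centre (28.3 to 33.9), 35.3% in the left arm (29.9 to 41.0) and 44.8% in the right arm (37.7 to 52.1). These differences between parts were not tested, since neighbouring peaks are not independent. Peaks with both replicates made up 10.9% of the left arm, 8.74% of the centre and 9.79% of the right arm.

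Support by both replicates was concentrated among peaks of high whole-series score. In the 10% of V peaks that scored highest, with scores from 23.9 to 178, 84 of 155 had both (54.2%, lower limit 46.0) and 1 had neither. In the next 10%, 43 had both (27.7%). In each of the lowest 6 classes of 155, at most 1 had both. In the lowest 10%, 116 of 155 had neither (74.8%). Median score was 26.7 for peaks with both, 8.45 for replicate 1 alone, 8.59 for replicate 2 alone and 4.33 for neither, and median widths were 634.5, 404, 330 and 196 bp. Score and width were not separated here, and a wider peak meets an overlap of 1 bp more easily. How the replicates entered the whole-series list is not stated, so its score cannot be taken as independent of the replicate peaks. Of the 415 peaks under 200 bp, none had both replicates, which allows a share of up to 0.885% (exact 95% upper limit), and 77.1% had neither. Of the 39 peaks of 2 kb or more, 19 had both and none had neither.

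**Figure D3:**
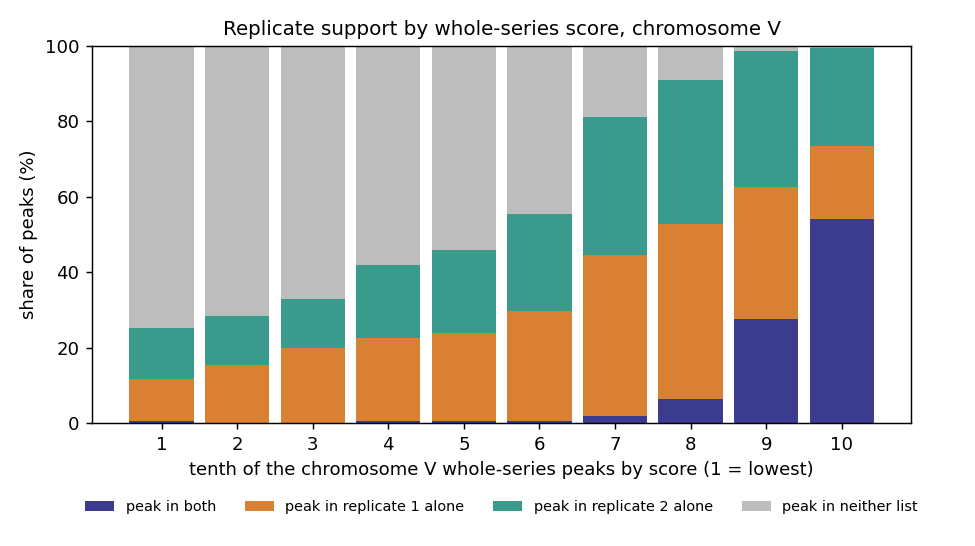
Share of the 1550 whole-series peaks of chromosome V (y axis, percent) that overlap a peak of both replicate lists, of a single list or of neither, in 10 classes of 155 peaks by whole-series score (x axis). The share with both reaches 54.2% in the highest class, and the share with neither is 74.8% in the lowest.

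Overlapping peaks of the 2 replicates formed 142 shared regions on V, of which 31 were in the left arm, 93 in the centre and 18 in the right arm. This is 5.25, 8.73 and 4.12 per Mb. Their median width was 625 bp, and 128 of them paired a single peak of each list. Each shared region overlapped at least 1 whole-series peak. The scores of the replicates in these regions had a Spearman rho of 0.13 across the 142 regions, so the order by strength was hardly shared. The 5 with the highest mean score percentile over both lists were chrV:10018403-10023585, chrV:9338361-9345389, chrV:17119869-17126725, chrV:17127986-17132215 and chrV:5780550-5781233. The first scored 3100 in replicate 1 and 1812 in replicate 2. The last, 684 bp wide and the narrowest of them, scored 845 and 1776. Their mean percentiles, taken within each whole list, ran from 98.2 down to 95.3.

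Peaks on V gathered in local clusters. A cluster was 4 or more consecutive whole-series peaks with at most 5 kb between neighbours. There were 110 clusters with 704 peaks, or 45.4% of the peaks on 4.95% of the chromosome. The number depends on the rule: it was 182 with 3 or more peaks, 69 with 5 or more, and 33 with 4 or more in the upper 50% of the list by score. The centre had 80 clusters (7.51 per Mb), the left arm 19 (3.22 per Mb) and the right arm 11 (2.51 per Mb). Clusters held 50.9% of the peaks of the centre, 35.0% of those of the left arm and 32.0% of those of the right arm. The median cluster had 5 peaks over 8.48 kb, and the longest spanned 29.8 kb. By the same rule clusters held between 50.3% and 61.2% of the peaks on chromosomes I to IV and 35.1% on X. Over the 6 chromosomes the share followed the order of overall peak density, from 138 per Mb on III to 74.1 on V and 56.9 on X, and the rule has a fixed distance.

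Clusters differed in which replicate supported them. Inside clusters 45.7% of peaks had a replicate 1 peak (42.0 to 49.5) and outside 27.3% (24.3 to 30.4). For replicate 2 it was 29.0% inside (25.6 to 32.5) and 37.5% outside (34.2 to 40.8). Within the centre alone the shares were 47.0% against 30.4% for replicate 1 and 27.1% against 35.2% for replicate 2. Of the 110 clusters, 27 had replicate 1 peaks and none of replicate 2, 18 the reverse, 62 had peaks of both lists and 3 of neither. When clusters were formed in each replicate list by the same rule, each list gave 30, and 4 of the 30 replicate 1 clusters overlapped a replicate 2 cluster. Single peaks of the other list were more common there. They lay in 19 of the 30 replicate 1 clusters and in 15 of the 30 replicate 2 clusters. These clusters held 29.0% of the replicate 1 peaks and 25.8% of the replicate 2 peaks on V. Of all replicate 1 peaks on V, 27.8% overlapped a replicate 2 peak. Neither the overlap of clusters nor the split of the 110 is given here for other chromosomes. Peaks of a cluster may fall under the same wide replicate peak, so the counts over peaks inside and outside clusters are not independent.

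The cluster with the most peaks, 22 at chrV:6071070-6100915, was mainly a replicate 2 cluster. The replicate 2 list had 29 peaks there, with scores from 51.5 to 3100, and the replicate 1 list had 5, from 67.2 to 342. The second, 17 peaks at chrV:13649601-13672160, had 9 replicate 1 peaks that scored up to 1765 and 1 replicate 2 peak at 55.95. The third, 16 peaks at chrV:10466367-10478697, likewise had 9 replicate 1 peaks and 1 replicate 2 peak. The fourth, 16 peaks at chrV:6211592-6232151, had 6 replicate 1 peaks, the strongest 5940 bp wide at a score of 1935, and none of replicate 2. The next, 14 peaks at chrV:11069349-11087339, had 5 replicate 1 peaks and 2 replicate 2 peaks. The largest cluster and the one at chrV:6211592-6232151 lie in the same window from 6 to 7 Mb and had opposite support.

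Over all 110 clusters, 66 had more peaks supported by replicate 1 and 31 more by replicate 2, and the rest had equal numbers. Across the 13 clusters of 10 or more peaks, a size chosen after the values were seen, 9 had more peaks supported by replicate 1 and 4 more by replicate 2. The lean to replicate 1 in this tally was thus not particular to the large clusters. The tally counts whole-series peaks, and a wide replicate peak can support several of them. More than 1 lay under 8.90% of the replicate 1 peaks on V and 3.32% of the replicate 2 peaks. Counts of the replicate peaks themselves can differ from it. At chrV:9321266-9347063, 9 whole-series peaks had replicate 1 support and 3 had replicate 2 support. The replicate lists held 6 and 7 peaks there. Of the 13 large clusters, 11 were in the centre. In the right arm, the cluster at chrV:17384112-17394358 had 11 of 11 peaks in replicate 2 and none in replicate 1. Without these 13 clusters the share of V peaks with both replicates was 9.46%, close to the 9.29% with them.

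**Figure D4:**
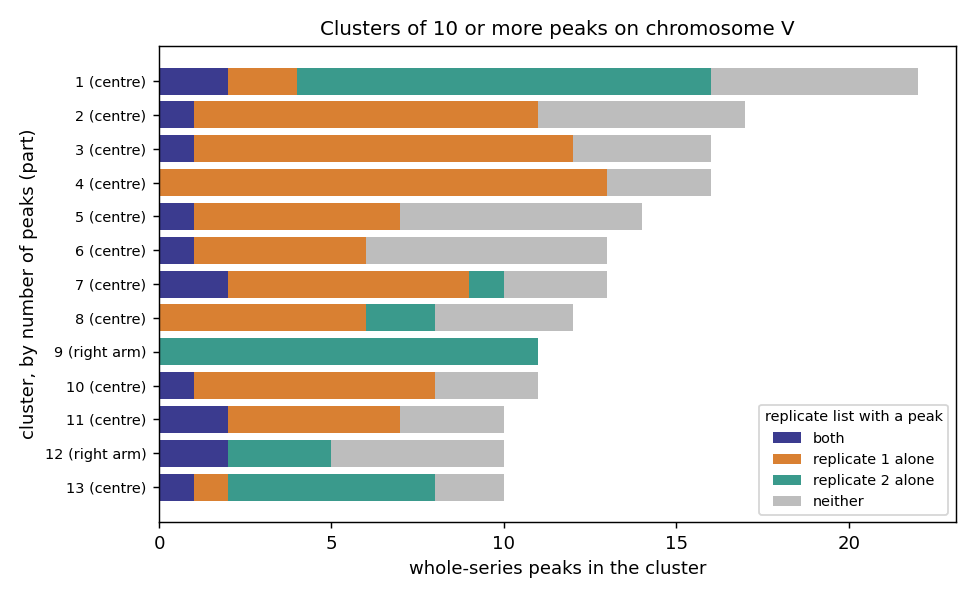
Number of whole-series peaks (x axis) in each of the 13 clusters of 10 or more peaks on chromosome V (y axis, ordered by size, with the part of the chromosome), coloured by which replicate lists have an overlapping peak. Of the 13, 9 have more whole-series peaks supported by replicate 1 and 4 more supported by replicate 2. Over all 110 clusters these counts are 66 and 31.

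The strongest sites on V were examined last, by whole-series score. The 25 strongest had scores from 66.6 to 178 and a median width of 1493 bp; the next peak below them scored 66.0. They lay 6 in the left arm, 15 in the centre and 4 in the right arm. Of all V peaks 19.5%, 67.9% and 12.5% lay in these parts. V held 14 of the 100 highest-scoring peaks of the 6 chromosomes, beside 16.1% of all peaks, and its strongest peak ranked 12th. Both replicates had a peak at 18 of the 25 (72%, 50.6 to 87.9), replicate 1 alone at 3 and replicate 2 alone at 4. Of the other 1525 peaks 8.26% had both (6.93 to 9.76). The score that picks the 25 cannot be taken as independent of the replicate lists. When an overlap of 50% of both peaks was required, 40% of the strongest 25 had both.

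The replicates ordered these sites differently. The upper score of 3100, shared by many peaks of each replicate list, was reached by 5 of the 25 in replicate 1 and by 10 in replicate 2, and by none in both. At 4 of the 25 the peak was at or above percentile 90 in each list. Among the 18 sites with both, the percentile was higher in replicate 2 at 14 and in replicate 1 at 4.

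The strongest site, at chrV:9545904-9547712, scored 178 in the whole-series list. In replicate 1 it fell within a peak of 3113 bp at the top score of 3100, and in replicate 2 it overlapped a peak of 320 bp with a score of 88.2, at percentile 32.9 of that list. Its neighbour 54 bp away, at chrV:9544805-9545849 (rank 14), lay under the same replicate 1 peak and had no replicate 2 peak. The sixth, chrV:13907038-13909858, and the eighth, chrV:723530-728186, were likewise at 3100 in replicate 1 and at percentiles 14.6 and 44.3 in replicate 2.

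Replicate 2 stood higher at the third site, chrV:15320628-15322886, the fourth, chrV:6071070-6072952, and the seventh, chrV:7916789-7925068. They scored 3100 in replicate 2 and 172, 342 and 266 in replicate 1. In the replicate 1 list these scores were at percentiles 65.6, 83.6 and 78.3, so the sites were in its upper part too. The site of rank 5, chrV:6088680-6089390, at 3100 in replicate 2, had no replicate 1 peak. The 13th, chrV:7912694-7914306, lies in a 12.4 kb stretch with the seventh. It scored 3100 in replicate 2 but 71.5 in replicate 1, at percentile 22.4 of that list. The 15th, chrV:8849766-8850556, was a replicate 1 site with a score of 899 and no replicate 2 peak.

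Strong sites shared by both replicates included the second, chrV:5780612-5781212 in the left arm, a 601 bp peak with scores of 845 and 1776 in replicates 1 and 2. The ninth, chrV:9338350-9345335 in the centre, scored 3100 and 1367. The right arm had 4 strong peaks within 16.8 kb at chrV:17115345-17132156, ranks 10, 11, 12 and 16 on V, and each was found in both replicates. Their scores in replicate 1 were 1174, 686, 173 and 302, and in replicate 2 they were 3100, 3100, 2568 and 3100. As percentiles within each list these were 95.9, 92.1, 65.8 and 81.0 in replicate 1 and 99.1, 99.1, 97.9 and 99.1 in replicate 2. By percentile all 4 therefore stood higher in replicate 2, the first 2 by little. This group follows a stretch of 149 kb without whole-series peaks, at chrV:16965906-17115344.

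Of the strongest 3 in the left arm, the one not yet described is chrV:5283157-5285879, with a score of 74.1, which was at 3100 in replicate 2 and absent from the replicate 1 list. The first peak of the chromosome, chrV:1-378, was the 25th strongest and had scores of 330 in replicate 1 and 1519 in replicate 2. The last, chrV:20923828-20924172, scored 43.0 and had no peak in either replicate list, the only peak of the highest-scoring 10% without support.

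**Figure D5:**
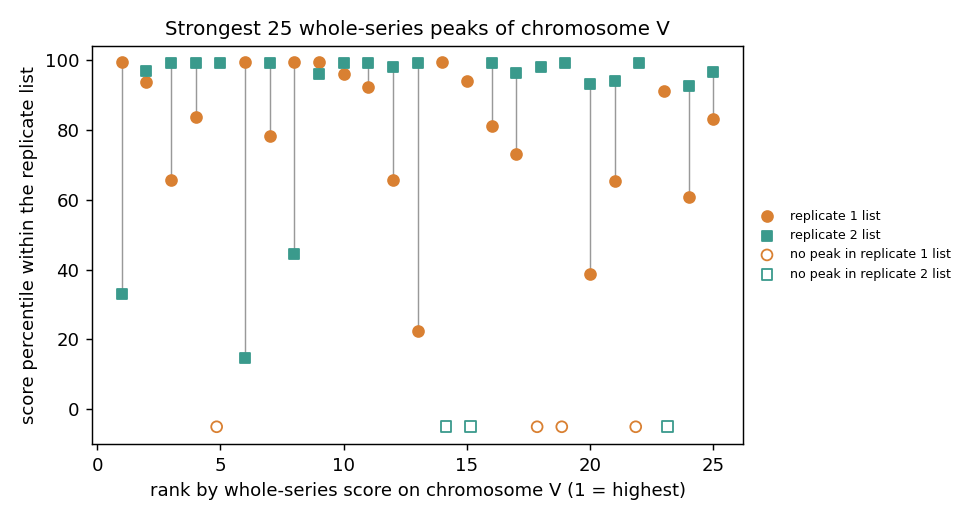
Score percentile within the replicate 1 list (circles) and the replicate 2 list (squares) on the y axis for the 25 strongest whole-series peaks of chromosome V, by rank (x axis); open symbols below 0 mark sites with no peak in that list. At 4 of the 25 sites the peak is at or above percentile 90 in each list.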

How the data were processed

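The authors deposited 3 peak lists with the position and a peak score of each peak. MACS made the replicate lists and MACS v2 the whole-series list, per the file contents, on WormBase WS220, per the file headers; the submitters' processing notes name BWA and ce10. How replicates and inputs entered the whole-series list, and what the deposited score measures, are not given in the sources used here, so scores were used as ranks within a list. Depth is unknown. From the lists, widths, distances, densities by midpoint, clusters and overlaps (1 bp or more) were computed with pandas 2.3.3 and scipy 1.17.1 under Python 3.11.15; intervals are exact (Clopper-Pearson, 95%). The chromosome end was the end of the last peak of any list, at 20924172. The 1 mitochondrial peak was left out. The functions passed 7 of 7 checks, on simulated data and against the overlap count of bedtools 2.31.1. Named positions followed a rule: strongest 15 peaks and strongest 3 of each part, widest 5, first and last peak, 5 largest clusters, 5 highest shared regions and 3 longest gaps. The remaining positions named were chosen after their values were seen. The members, boundaries and rules were chosen with earlier results of these data known. No test was run.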

Additional observations from a re-analysis of the deposited data

How the results depend on the processing

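The centre of chromosome V stayed denser than the arms in the whole-series list under the 7 alternatives that use its peaks, with log2 differences of arms minus centre from -0.77 to -1.06 against -1.03. The lists of a single replicate gave -0.53 and -1.32, and with the middle 33.3% as centre replicate 2 was near level, at a ratio of 0.969. The share of peaks with both replicates, 9.29%, was 5.226% with 50% overlap of both peaks, 15.48% within 1000 bp and 6.977% with the upper 50% of each list by score, and support by a single replicate was 33.61% to 35.68% when the other was left out. It was 9.455% without the clusters of 10 or more peaks, a setting chosen after seeing the data. The median distance of 3230 bp became 4934 bp with peaks within 200 bp merged and 9687 bp in the upper 50%. The 110 clusters became 182 with 3 or more peaks, 69 with 5 or more and 33 in the upper 50%. The 72% of strongest peaks with both became 90% for the strongest 10 and 40% with 50% overlap. Median width, 291 bp, was 312 to 533.5 bp in the list of a single replicate. The cause of these shifts was not tested beyond the settings themselves, which are stricter, looser or use another list. No paired analysis was possible because only the ChIP libraries have peak lists and no results come from a test. Unknown depth and the lowest score kept in each list limit what a missing peak shows.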
